A study of Mus musculus with 2 samples.

Results

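The BCL2 family decides whether the outer membrane of the mitochondrion stays closed or is opened in apoptosis. Of 10 family genes, 9 were measured among 14197 genes in 4T1 cells, a mouse mammary carcinoma line. The 10 were chosen for their role, though with earlier results of these data known. The 9 were the pro-survival genes Bcl2, Bcl2l1 and Mcl1, the effectors Bax and Bak1, and the BH3-only genes Bid, Bad, Bcl2l11 and Bbc3. The tenth, the BH3-only gene Pmaip1, was not analysed here.

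By their labels the cells were of genotype WT and received astragalin (AS), a plant flavonoid, or the vehicle. The study's methods give 24 h of treatment, but the labels of the libraries name no dose. The study treated 4T1 cells at several doses, and 20 μM, used in some of those assays, is taken as the dose here. For each condition 1 mRNA library was sequenced, so no difference below has a replicate check and no p-value is given. The samples are 1 line in culture, and the labels do not name what the vehicle was. The values are RPKM, the reads of a gene scaled to its exon length and to the library size, which was 44909683 reads for AS and 50820728 for the vehicle. The genes of the family were read 502 to 4600 times in a library, and the 95% Clopper-Pearson intervals given beside the differences describe counting error alone.

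Healthy cells keep the effectors Bax and Bak1 in check through the pro-survival proteins, which bind them or the BH3-only proteins. Stress raises or activates BH3-only proteins, which occupy the groove of the pro-survival proteins or act on the effectors directly. Bax and Bak1 then form pores, cytochrome c leaves the mitochondrion, and the apoptosome activates caspases. Much of this control is exerted on the proteins, by phosphorylation, cleavage and turnover, which RNA-seq does not measure.

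The feature that unites these genes is the BH3 motif, in the BH3-only proteins the short helix that binds the groove of the pro-survival proteins. Its coding bases are shown for the 9 measured genes, since this stretch is what the classes below have in common. The motif was searched in the translated coding sequence as a leucine codon, 3 codons of any kind, a glycine, alanine or serine codon and an aspartate codon. Each of the 9 coding sequences held exactly 1 match. The bases come from the GENCODE M21 transcripts (GRCm38), the 6 codons of the motif are in capitals, and 4 codons are shown in lower case on either side.
Bcl2, chr1:106712572-106712613, minus strand: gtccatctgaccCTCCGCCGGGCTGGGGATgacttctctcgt
Bcl2l1, chr2:152829694-152829735, minus strand: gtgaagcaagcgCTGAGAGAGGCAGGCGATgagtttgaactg
Mcl1, chr3:95659424-95659465, plus strand: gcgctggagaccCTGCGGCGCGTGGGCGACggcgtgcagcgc
Bax, chr7:45465994-45466035, minus strand: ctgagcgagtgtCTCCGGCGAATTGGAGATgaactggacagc
Bak1, chr17:27022528-27022569, minus strand: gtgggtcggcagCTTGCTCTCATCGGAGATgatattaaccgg
Bid, chr6:120897286-120897327, minus strand: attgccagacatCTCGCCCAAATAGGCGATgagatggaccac
Bad, chr19:6950780-6950821, plus strand: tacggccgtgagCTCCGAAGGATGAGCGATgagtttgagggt
Bcl2l11, chr2:128147138-128147179, plus strand: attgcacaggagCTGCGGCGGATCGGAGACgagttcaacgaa
Bbc3, chr7:16313761-16313802, plus strand: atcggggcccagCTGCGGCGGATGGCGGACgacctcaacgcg

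The residue before the aspartate was glycine in 7 of the 9, serine in Bad and alanine in Bbc3. In the multidomain proteins the motif lay well inside the coding sequence, with 137 codons after it in Bcl2, 138 in Bcl2l1, 132 in Mcl1, 124 in Bax and 128 in Bak1. Bad, Bcl2l11 and Bbc3 had 48, 41 and 47 codons after it. Bid, a BH3-only protein with a fold like that of the multidomain members, had 100. In every one of the 9 genes the bases shown lie within 1 coding exon, and a read count of the whole gene does not tell transcripts with this exon from those without it.

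All 9 genes were expressed in both libraries, and they spanned less than 1 order of magnitude. Of all genes in the table, 0 had an RPKM of 0 in either library, so being read does not set the 9 apart. The percentages of genes below are therefore ranks among genes that were read. Bax was the highest, with an RPKM of 37.4 in the vehicle library, above 89.8% of the genes in the table. Mcl1 followed with 26.5, Bad with 21.9 and Bak1 with 16.8. Bcl2l1 stood at 9.79 and Bid at 8.18. The lowest were Bcl2l11 with 5.78, Bcl2 with 5.52 and Bbc3 with 4.65, the last of which was above 49.2% of the genes. Bcl2 and Bcl2l11 were the only neighbours in a different order between the libraries, since Bcl2 was above Bcl2l11 in the AS library.

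**Figure D1:**
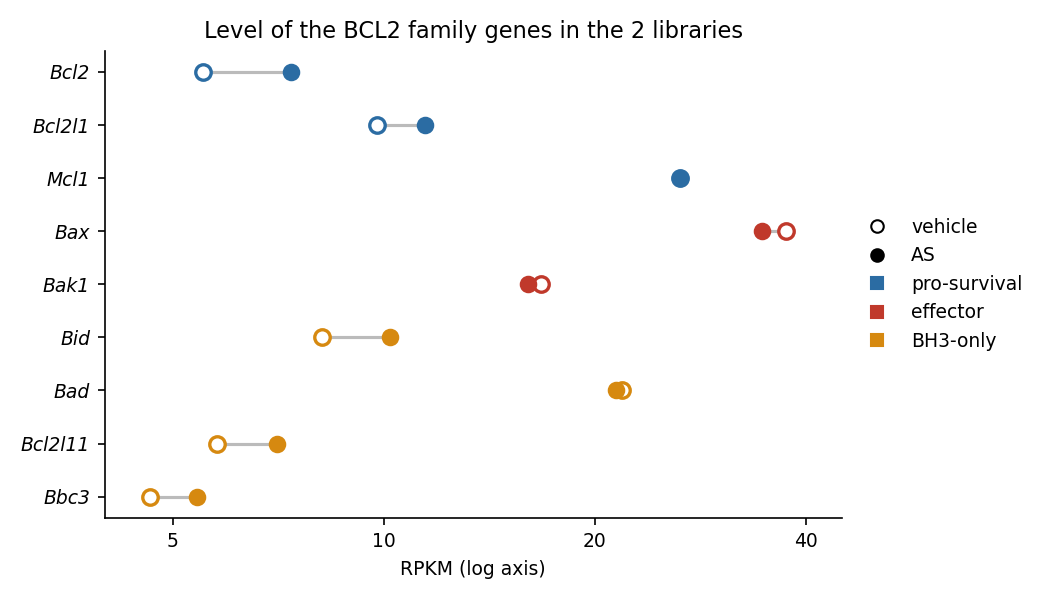
RPKM of the 9 BCL2 family genes on a log axis in the vehicle library (open circles) and the AS library (filled circles), coloured by class, with 1 library per condition and no error bars. Bcl2, Bcl2l1, Bid, Bcl2l11 and Bbc3 lie further right with AS, and the circles of Mcl1 coincide.

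Of the 9 genes, 0 differed 2-fold between the libraries (a log2 fold change of 1), and 0 differed by as much as 1.5-fold. Over the whole table, 0.972% of the genes lay beyond 2-fold and 5.57% beyond 1.5-fold, so a count of 0 among 9 is near the background. The differences were small, from -0.11 for Bax to 0.41 for Bcl2. The median log2 fold change was 0.21 over the 9 genes and 0.07 over all genes, where 60.9% of the genes were higher with AS. Of the 9 genes, 5 were higher with AS and had an interval above 0, against 38.2% of the 12735 genes whose reads could be recovered. In 1 gene the interval lay below 0, against 20% of genes, and in 3 it held 0. An interval is narrower the more reads a gene has, and these shares were not matched for reads. The members had 502 to 4600 reads in a library, while the recovered genes went down to a mean of 31. The shares therefore do not show whether the family differed from genes read as deeply.

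Among the pro-survival genes, Bcl2 and Bcl2l1 were higher in the AS library and Mcl1 was level. Bcl2 encodes the founding member of the family, a guardian at the mitochondrial and ER membranes, and lies at chr1:106538178-106714274 on the minus strand. In the AS library Bcl2 stood at 7.37 RPKM (3029 reads), against 5.52 RPKM (2568 reads) in the vehicle library. Its log2 fold change of 0.41 was the largest of the 9, and the interval of the read ratio ran from 0.34 to 0.49. That value exceeded the log2 fold change of 91.0% of all genes.

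Bcl2l1, at chr2:152780668-152831728 on the minus strand, encodes BCL-XL and, by splicing, a short form that acts against survival, and the table gives their sum. AS-treated cells gave 11.5 RPKM (2362 reads) and vehicle-treated cells 9.79 RPKM (2281 reads). This is a log2 fold change of 0.23, with an interval from 0.15 to 0.31. Mcl1, at chr3:95658788-95663176 on the plus strand, encodes a pro-survival protein of short life whose level follows translation and turnover closely. The libraries held 26.46 RPKM (AS, 4061 reads) and 26.48 RPKM (vehicle, 4600 reads) of it. The log2 fold change of -0.0014 had an interval from -0.06 to 0.06, so Mcl1 was the family gene with the smallest difference. The difference between Bcl2 and Mcl1 was 0.42 on the log2 scale of the read ratio, with an interval by counting error from 0.32 to 0.52.

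Both effectors were slightly lower with AS. Bax, at chr7:45461697-45466898 on the minus strand, encodes the effector that moves from the cytosol to mitochondria. AS-treated cells held 34.6 RPKM of Bax (2450 reads), below the 37.4 RPKM (2998 reads) of the vehicle library. Its log2 fold change of -0.11 had an interval from -0.19 to -0.04, wholly below 0. Bak1, at chr17:27019810-27029009 on the minus strand, encodes the effector that resides on mitochondria. Bak1 stood at 16.1 RPKM (AS, 1736 reads) and 16.8 RPKM (vehicle, 2052 reads). At -0.06 its log2 fold change was within counting error, with an interval from -0.16 to 0.03.

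Of the BH3-only genes, Bid, Bcl2l11 and Bbc3 were higher with AS and Bad was not. Bid, at chr6:120891930-120916853 on the minus strand, encodes the protein that caspase-8 cleaves to link death receptors to mitochondria. The AS library held 10.2 RPKM (1629 reads) of Bid, and the vehicle library 8.18 RPKM (1475 reads). On the log2 scale Bid was 0.32 higher with AS, and the interval ran from 0.22 to 0.42. Bcl2l11, at chr2:128126038-128162547 on the plus strand, encodes BIM, which binds every pro-survival member. Bcl2l11 stood at 7.05 RPKM (AS, 2543 reads) and 5.78 RPKM (vehicle, 2358 reads). Its log2 fold change was 0.28, with an interval from 0.21 to 0.37.

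Bbc3, at chr7:16308393-16318205 on the plus strand, encodes PUMA, a classic target of p53. Only 516 reads (5.41 RPKM, AS) and 502 reads (4.65 RPKM, vehicle) fell on Bbc3. Its log2 fold change was 0.21, and with the fewest reads of the 9 genes its interval was the widest, from 0.04 to 0.40. Bad, at chr19:6941861-6951899 on the plus strand, encodes a BH3-only protein that AKT and other kinases hold inactive by phosphorylation. Bad was nearly equal in the libraries, at 21.5 RPKM (AS, 2466 reads) and 21.9 RPKM (vehicle, 2844 reads). The interval of its log2 fold change of -0.03 ran from -0.11 to 0.05. Bid and Bad differed by 0.35 on the log2 scale of the read ratio, with an interval by counting error from 0.22 to 0.48.

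**Figure D2:**
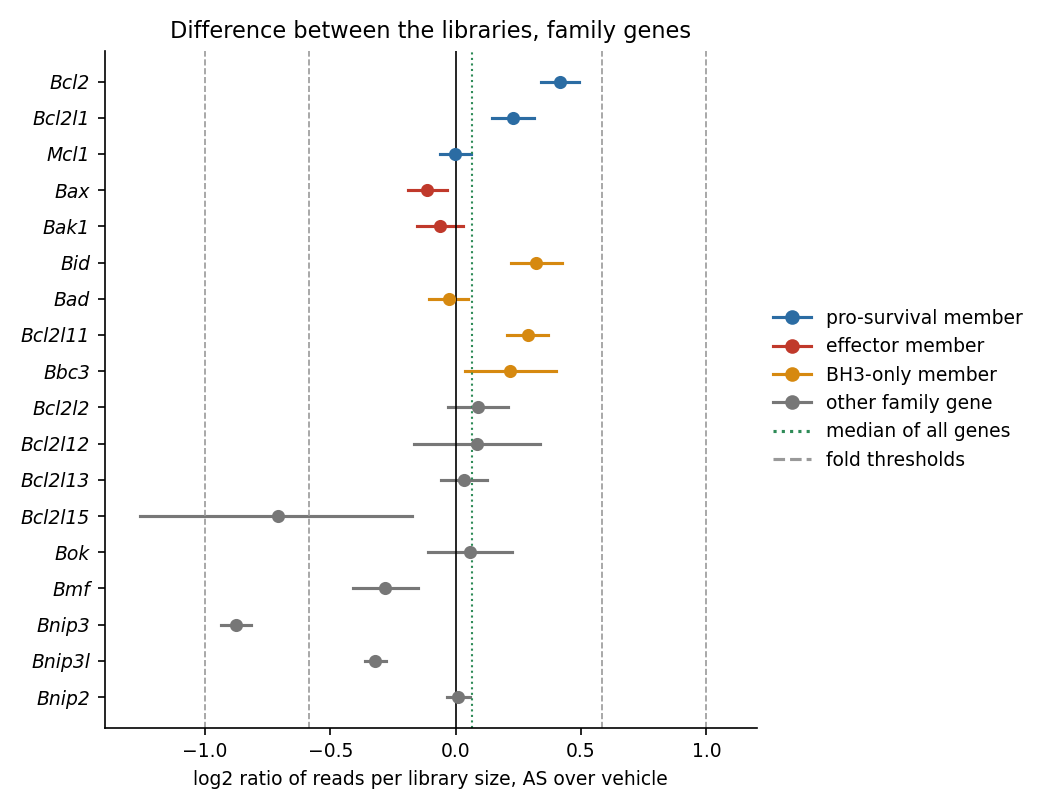
The log2 ratio of reads per library size, AS over vehicle, with its 95% Clopper-Pearson interval (bars, counting error only) for the 9 members and 9 other family genes. Dotted line, median log2 fold change of all genes; dashed lines, 1.5-fold and 2-fold in either direction. No member reaches a dashed line, and Bnip3 and Bcl2l15 lie beyond the 1.5-fold line on the lower side.

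The median log2 fold change of the whole table was 0.07, and the intervals can be read against it rather than against 0. The intervals of Bcl2, Bcl2l1, Bid and Bcl2l11 lay above the median of all genes, and those of Mcl1, Bax, Bak1 and Bad lay below it. The interval of Bbc3 held it. Over the 12735 genes with recovered reads, 28.1% had an interval above this median and 28.2% below it. These shares were not matched for reads either, so they are no measure of an excess among the members. Each side of the median held both pro-survival and pro-apoptotic genes.

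The balance of the classes differed little between the libraries. The 9 genes summed to 140.1 RPKM in the AS library and 136.5 RPKM in the vehicle library. The pro-survival genes made up 32.3% of it with AS and 30.6% with the vehicle, the effectors 36.2% and 39.7%, and the BH3-only genes 31.5% and 29.7%. The ratio of effector to pro-survival RPKM was 1.12 (AS) and 1.30 (vehicle), a log2 difference of -0.21 with an interval by counting error from -0.29 to -0.14. The ratio of BH3-only to pro-survival RPKM was 0.975 and 0.969, a log2 difference of 0.0089 with an interval from -0.06 to 0.08. The ratio of Bax to Bcl2, often used to describe this balance, was 4.70 with AS and 6.78 with the vehicle, with intervals from 4.46 to 4.96 and from 6.43 to 7.15. On this ratio the AS library was therefore lower. Bcl2, with a log2 fold change of 0.41, contributed more to it than Bax, with -0.11. Bcl2 has the longest exons of the 9 genes and Bax the shortest, and the differences varied with exon length, as given below. These ratios describe mRNA and not protein.

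**Figure D3:**
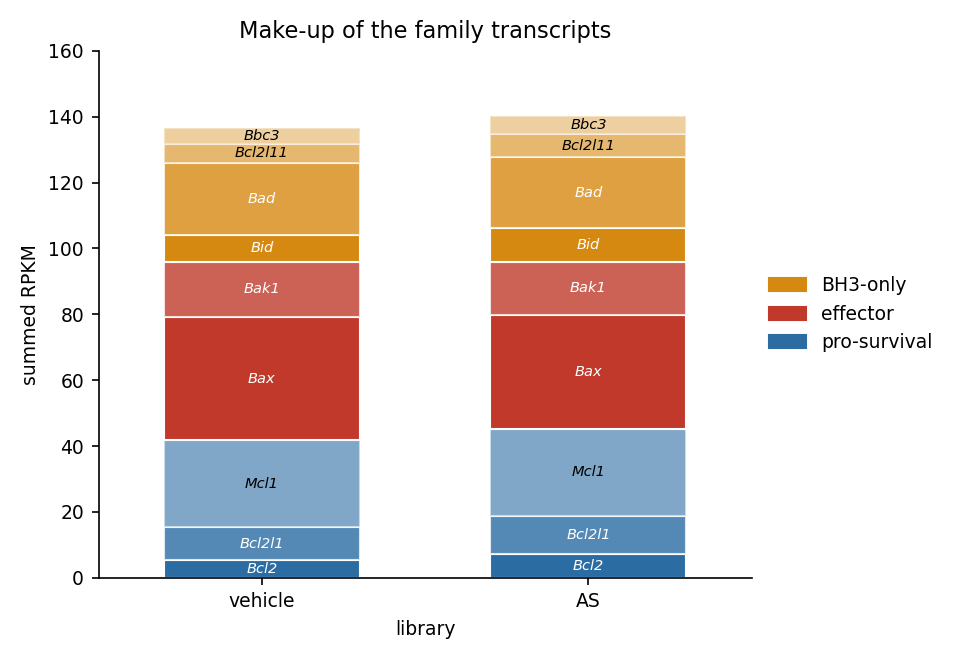
Summed RPKM of the 9 BCL2 family genes in the vehicle and the AS library, stacked by gene and coloured by class, 1 library per bar and no error bars. The bars reach 136.5 and 140.1, and the effector share is 39.7% with the vehicle and 36.2% with AS.

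The genes that were higher with AS also tended to be those with longer exons. Of the genes higher with AS, the summed exon length was 9157 bases for Bcl2, 8029 for Bcl2l11, 4586 for Bcl2l1, 3550 for Bid and 2124 for Bbc3. It was 3418 bases for Mcl1, 2558 for Bad, 2407 for Bak1 and 1576 for Bax. Bbc3 was thus shorter than Bad and Bak1, and Bid and Mcl1 were of similar length although their log2 fold changes were 0.32 and -0.0014. Over the 9 genes Spearman's rho between exon length and log2 fold change was 0.85. Over the 12735 genes with recovered reads it was 0.205, a correlation across genes of the same pair of libraries, which are not independent replicates. With all genes put into 20 bins of exon length, the median log2 fold change went from -0.04 in the shortest bin to 0.18 in the longest. After the median of its bin was subtracted, the log2 fold change was 0.28 for Bcl2, 0.17 for Bcl2l11, 0.16 for Bcl2l1, 0.27 for Bid and 0.20 for Bbc3. The same subtraction gave -0.10 for both Bax and Bak1, -0.06 for Bad and -0.05 for Mcl1. Each direction was kept. GC content and level varied with the differences as well: over the 9 genes Spearman's rho was -0.70 with GC content and -0.72 with level, and over all genes with a value it was -0.12 and -0.16. With the median of 20 bins of GC content subtracted in the same way, Bcl2 was at 0.30, Bcl2l11 at 0.20 and Bbc3 at 0.20. With that of 20 bins of level subtracted they were at 0.33, 0.20 and 0.12. The direction of every member was kept in both, except that of Mcl1, which was 0.0014 after the subtraction for level.

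**Figure D4:**
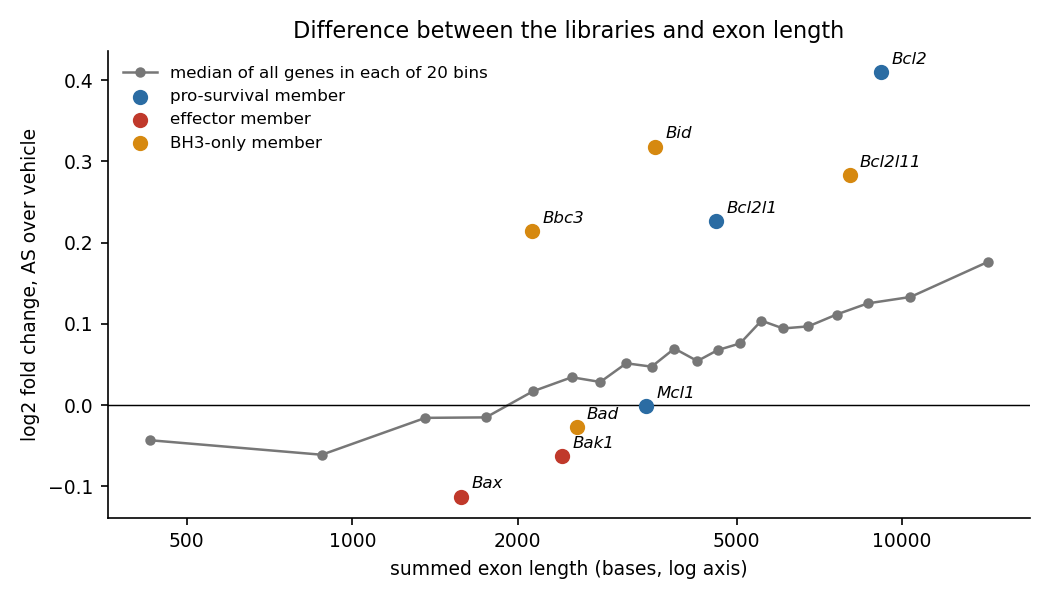
Log2 fold change, AS over vehicle, against summed exon length (bases, log axis) for the 9 members (coloured by class) and the median of all genes in each of 20 bins of exon length (grey). The grey line climbs from -0.04 to 0.18, and Bcl2, Bid, Bcl2l11, Bcl2l1 and Bbc3 lie above it.

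Reads of some of these genes are shared territory. In GENCODE M21 exons on the opposite strand overlap 20.5% of the exon length of Bad (Gpr137), 18.2% of Bak1 (Ggnbp1), 17.7% of Bid (Bcl2l13) and 6.09% of Bcl2 (D630008O14Rik). A same-strand entry, Gm45808, overlaps 12.2% of Bax. The library kit was stranded, but whether the counting used strand is not given in the sources used here, so these genes carry an uncertainty that the intervals do not include.

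Other genes of the family, those with BH domains or of the BNIP group, were examined from a list of 16, of which 9 were in the table and the other 7 were not analysed here. Their median log2 fold change was 0.0097. The pro-survival gene Bcl2l2, which encodes BCL-W, stood at 5.39 RPKM (AS) and 5.07 RPKM (vehicle), a difference of 0.09 on the log2 scale whose interval ran from -0.03 to 0.21. The effector-like gene Bok stood at 6.90 RPKM (AS) and 6.63 RPKM (vehicle), a difference of 0.06 with an interval from -0.11 to 0.22. Neither could be told from 0 at this depth.

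The BH3-only gene Bmf, whose protein is held on the cytoskeleton, went the other way from Bcl2l11. Bmf stood at 3.49 RPKM (AS, 824 reads) and 4.24 RPKM (vehicle, 1132 reads), and its log2 fold change of -0.27 had an interval from -0.41 to -0.15. The largest difference of the list was that of Bnip3, a mitophagy receptor and a known hypoxia-responsive gene. The AS library held 32.5 RPKM (3301 reads) against 59.5 RPKM (6849 reads) in the vehicle library, and the log2 fold change of -0.87 had an interval from -0.93 to -0.81. Its relative Bnip3l, which encodes NIX, was also lower with AS, at 47.8 RPKM against 59.7 RPKM, which is -0.32 on the log2 scale (interval from -0.36 to -0.28). Bnip3 and Bcl2l15 (-0.59, from only 46 and 85 reads) were the 2 genes of the 9 more than 1.5-fold lower with AS, against 2.01% of all genes, and 0 were more than 1.5-fold higher, against 3.56%. Bcl2l15 lay just past that threshold. Bcl2l12, Bcl2l13 and Bnip2 had log2 fold changes of 0.08, 0.03 and 0.0097, and all their intervals held 0.

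Downstream of the mitochondrial membrane, all 22 genes of a list of apoptosome, caspase and inhibitor genes were in the table, with a median log2 fold change of 0.03. Endog, a mitochondrial endonuclease gene, was the only one of the 22 beyond 1.5-fold (4.5%, against 5.57% of all genes). It stood at 0.649 RPKM (AS, 31 reads) and 1.43 RPKM (vehicle, 77 reads), and its log2 fold change of -1.03 rests on few reads. Over all genes 0.31% were more than 2-fold lower with AS and 0.662% more than 2-fold higher. In a list of 20 partners of the family at the outer mitochondrial membrane and the ER, the median was 0.0026. There Itpr2, an ER calcium channel of a kind that BCL2 binds, was the only gene beyond 1.5-fold (5%, against 5.57% of all genes). It stood at 2.56 RPKM (AS) and 1.47 RPKM (vehicle), and its log2 fold change was 0.76 (interval of the read ratio from 0.69 to 0.91).

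Of the lists examined, that of 34 genes listed as regulators of the family, by transcription, turnover, phosphorylation or binding, held the largest differences. The lists were chosen with earlier results of these data known, so this ranking only describes them. Of these, 32 were in the table (Trp73 and Usp13 were not analysed here), with a median log2 fold change of 0.15. With AS, 3 were more than 2-fold higher and 0 more than 2-fold lower, against 0.662% and 0.31% of all genes. Beyond 1.5-fold, 5 were higher (15.6%, against 3.56% of all genes) and 1 was lower (3.1%, against 2.01%). The 3 more than 2-fold higher were Trib3 (log2 fold change 2.10), Ddit3 (1.68) and Atf3 (1.08), genes of the integrated stress response. Ddit3 encodes CHOP, a factor described to lower Bcl2 and raise Bcl2l11 in other systems. Ddit3 stood at 101 RPKM (AS) and 31.5 RPKM (vehicle). In the same libraries Bcl2 was 1.33-fold and Bcl2l11 1.22-fold higher with AS. Whether CHOP acted on either gene was not tested. Atf4 followed with a log2 fold change of 0.70. Trp63, a p53 relative, had 0.64 from an RPKM of only 0.154 and 0.063, where the 0.1 RPKM added to both values weighs heavily and the interval of the read ratio ran from 0.60 to 2.00. Dynll1, whose product is the dynein light chain that sequesters BIM, was lower, at 21.7 RPKM (AS) and 35.2 RPKM (vehicle), a log2 fold change of -0.70 (interval from -0.76 to -0.64). Outside the lists, the ER stress sensor gene Ern1 and the proliferation marker Mki67 had log2 fold changes of 1.06 and -0.29.

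**Figure D5:**
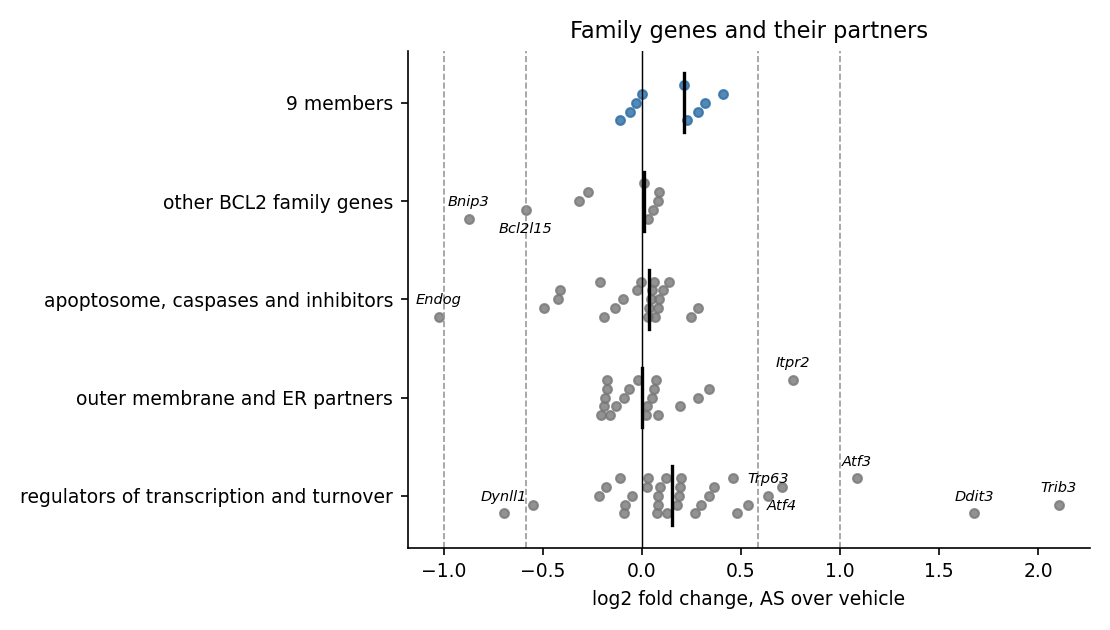
Log2 fold change, AS over vehicle, of each gene (points, spread vertically only for legibility) in the 9 members and in 4 lists of related genes, with the median of each list as a vertical bar and dashed lines at 1.5-fold and 2-fold in either direction. Genes beyond 1.5-fold are named, and none of them is a member.

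The letters TGATGNAA, the core of the element through which ATF4 and CHOP partners act on amino acid response genes, were sought on both strands in RefSeq promoter windows (GRCm38.p6, 250 bases before to 50 after each start). All 9 genes were matched by symbol, with 15 windows, and 0 of these held the letters. Among genes in the table, 2.12% of 12391 windows held them, and of all 32851 windows 3.97%, those of Trib3 and Atf3 among them and that of Ddit3 not. The search was chosen after the values of Ddit3 and Atf4 were seen. That these letters are not in the windows says nothing on whether such factors act on the family.

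The label of the cells was checked on their markers. All 10 epithelial and mammary carcinoma markers were in the table, summing to 1874 RPKM (AS) and 2373 RPKM (vehicle), led by Krt18, Krt8 and Epcam. Of these 10, 3 were higher with AS, against 60.9% of all genes, and 7 were lower. Their log2 fold changes ran from -0.73 for Krt19 to 0.47 for Esrp1. Of 10 markers of leukocytes, endothelium and fibroblasts, 4 were in the table and 6 were not analysed here, with a summed RPKM of 5.63 and 5.34. Most of this sum was Pdgfra, listed as a fibroblast marker, at 4.24 RPKM (AS) and 4.16 RPKM (vehicle), close to the level of Bbc3. The fibroblast marker Col1a1 stood at 0.896 and 0.711 RPKM, and the leukocyte markers Csf1r and Ptprc at 0.378 and 0.358 and at 0.116 and 0.114 RPKM. In a bulk library fewer cells with a transcript and less of it per cell cannot be told apart. With 1 library per condition, AS cannot be told apart from any other way in which the samples differed.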

How the data were processed

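RNA was sequenced from 1 AS and 1 vehicle library of 4T1 cells. The submitters' processing notes name fastp 0.23.4, STAR 2.5.3a and featureCounts. They name the build GRCh38, which is human, whereas the values were matched by mouse exon lengths of GRCm38. The authors deposited 1 table of RPKM values, without a filter being stated, together with a log2 mean CPM and with their own fold changes, p-values and FDR. None of the columns of comparisons was used, nor the log2 mean.

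For most genes RPKM times the exon length in GENCODE M21 is a whole multiple of 1 constant per library, which gave the library sizes. Whole reads (within 0.001) were recovered for 12735 genes, 89.7% of the 14197, and for all 9 members. Among the 13502 genes with a single entry the share recovered was 94.2%. Fold changes are log2 ratios after 0.1 RPKM was added, without further scaling, which understates the change of low genes. Intervals of single genes are exact (Clopper-Pearson, 95%) from reads, with nothing added. Intervals of sums, ratios and differences between genes are normal approximations from the same reads. No molecular identifiers are named, so PCR copies of a molecule may be counted more than once. The recovery was tested on simulated data.

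The members and lists were chosen with earlier results of these data known. Named are all members, all other family genes in the table, genes of further lists beyond 1.5-fold (at most 4 in each direction), and Ddit3, Ern1 and Mki67, which the study, like the member Bcl2, also measured by PCR. Cell type markers are named outside this rule. The 2-fold threshold is that of the study's sequencing methods, and the 1.5-fold one stands there in a passage on arrays. Coding bases were printed in place of the planned protein stretches, and the promoter search was added later. Alternatives were other amounts added, scaling by TMM, by upper quartile or by the median of ratios, centring, a minimum of 1 RPKM, the second threshold, and reads in place of RPKM. Removal of trends with exon length, GC content and level was chosen after seeing the data. Python 3.11 and scipy 1.17.1 were used.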

Additional observations from a re-analysis of the deposited data

How the results depend on the processing

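The count of members beyond a log2 fold change of 1 was 0 under each alternative in added amount, scaling, centring, minimum level and threshold, and with each of the 3 trends removed. The median log2 fold change of the members ranged from 0.12, with the trend with level removed, to 0.22 with nothing added. TMM scaling lowered the AS values by 0.07 on the log2 scale. Under the 10 alternatives each member kept its direction, except that Mcl1, near 0 throughout, went from -0.09 to 0.0014. Bcl2 ranged from 0.28 to 0.42.

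In reads, not divided by exon length, the ratio of Bax to Bcl2 was 0.809 with AS and 1.17 with the vehicle, since Bcl2 has the longer exons. In reads the log2 ratio of the pro-survival sum was 0.18, against 0.12 in RPKM. At a threshold of 1.5-fold in place of 2-fold, the genes beyond it numbered 2 in place of 0 for the other BCL2 family genes, 1 in place of 0 for the membrane and ER partners, and 6 in place of 3 for the regulators. Over all genes 5.57% lay beyond 1.5-fold and 0.972% beyond 2-fold. No replicate could be left out, and no paired analysis was possible because each condition has 1 library. The reads behind Bbc3, Bcl2l15, Endog and Trp63 limit these genes most.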
